A study of Rattus norvegicus with 4 samples.

Results

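Acyl-CoA dehydrogenases and carnitine acyltransferases were taken from the nylon arrays as the spots whose gene name contained "acyl-CoA dehydrogenase" or "carnitine". The rule found 8 genes among the 1185 spots, 5 acyl-CoA dehydrogenases (MCAD, LCAD, VLCAD, SCAD and SBCAD) and 3 carnitine palmitoyltransferases (the liver and muscle isoforms of CPT1 and CPT2). The arrays carried RNA of mesenteric white adipose tissue from female Wistar rats of 220 to 230 g at the start. Rats of the OE group (n = 2 arrays) received oleoyl-estrone, the oleic acid ester of estrone, (10 μmol/kg daily, dissolved in 0.2 ml sunflower oil) by stomach cannula for 2 days. Rats of the control group (n = 2 arrays) received the oil alone. All animals had chow ad libitum, the tissue was taken at 48 h, and each array carried 1 rat. The age of the rats was not given in the sources used here, and the design has a single dose and a single time.

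Long-chain fatty acids enter mitochondria through the carnitine system. CPT1, on the outer membrane, joins the acyl group to carnitine and is inhibited by malonyl-CoA, and CPT2, on the inner membrane, returns it to CoA. The acyl-CoA dehydrogenases then carry out the opening step of each turn of β-oxidation, with VLCAD, LCAD, MCAD and SCAD acting on progressively shorter chains and SBCAD on short branched chains such as those from isoleucine. White adipose tissue stores fatty acids more than it oxidizes them. The comparison of OE with control asks whether short-term OE changed the expression of this set.

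The names in the array files matched a RefSeq gene of the rat assembly GRCr8 by symbol or synonym for 6 of the 8 genes, and the liver isoform of CPT1 (Cpt1a) and SBCAD (Acadsb) were matched by the name of the isoform. Acadm lies on chromosome 2, Acadl on 9, Acadvl on 10, Acads on 12, Cpt1b on 7, Cpt2 on 5, and Acadsb and Cpt1a on 1. RefSeq promoter entries were found for 6 genes, all except Acadl and Cpt1b. The upstream sequences of MCAD and VLCAD are shown because both enzymes were lowest on control 1 and highest on control 2, with the OE arrays in between. They are read 5′ to 3′ on the minus strand of GRCr8, restricted to bases outside the span of the gene. Capitals mark TGACGTCA, the full cyclic AMP response element, and AGGTCA, the nuclear receptor half-site.
MCAD (Acadm, chr2:245542865-245543114): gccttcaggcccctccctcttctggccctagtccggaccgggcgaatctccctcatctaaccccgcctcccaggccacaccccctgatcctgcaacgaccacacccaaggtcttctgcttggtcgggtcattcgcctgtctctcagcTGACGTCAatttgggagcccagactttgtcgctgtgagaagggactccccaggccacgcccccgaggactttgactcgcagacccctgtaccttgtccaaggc
VLCAD (Acadvl, chr10:55236787-55236955): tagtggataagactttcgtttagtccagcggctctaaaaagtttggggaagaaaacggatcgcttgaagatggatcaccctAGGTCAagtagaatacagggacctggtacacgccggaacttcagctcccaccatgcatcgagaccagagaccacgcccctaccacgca
Both strands of the first 250 bases of each RefSeq promoter entry were searched for both elements and for GGGCGG, the core of the GC box. No match overlapped that of another motif. The window lay wholly outside the span of the gene for Acadm only. The bases outside the span were 176 for Acads, 169 for Acadvl, 122 for Acadsb and 0 for Cpt1a and Cpt2. TGACGTCA occurred 1 time in the window of Acadm and in 1.59% of all 33469 windows. AGGTCA occurred 2 times in the window of Acadvl, one of them in the stretch printed above, and in 14.1% of all windows. GGGCGG occurred 5 times in the window of Acadsb, 3 times in that of Cpt2 and 1 time in that of Acads, and in 30.5% of all windows. The window of Cpt1a held none of the 3 motifs. That of Cpt2, a gene with the same order over the arrays as MCAD and VLCAD, held neither TGACGTCA nor AGGTCA. The matches describe these letters only.

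Few values of the 8 genes stood clear of the background. Adjusted intensities are given after subtraction of a single background value per array, which lay between 54 and 61, and a value was called detected when the adjusted intensity, after that subtraction, was still at least 2 times the background (108 to 122). By this limit 4 of the 32 values of these genes were detected (12.5%), near the 15.9% of all values on the 4 arrays. Before subtraction, 10 of the 32 spot intensities (31.2%) and 24.8% of all of them were at least 2 times the background. MCAD, LCAD and VLCAD were detected on control 2 alone and the liver isoform of CPT1 on OE 1 alone. The adjusted intensities of SCAD, SBCAD, CPT1b and CPT2 were below the limit on every array. The fat cell marker FABP4 was detected on all 4 arrays, whereas leptin was at or below 11 on each of them. In whole tissue, fewer cells of a type and less RNA per cell cannot be told apart.

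**Figure D1:**
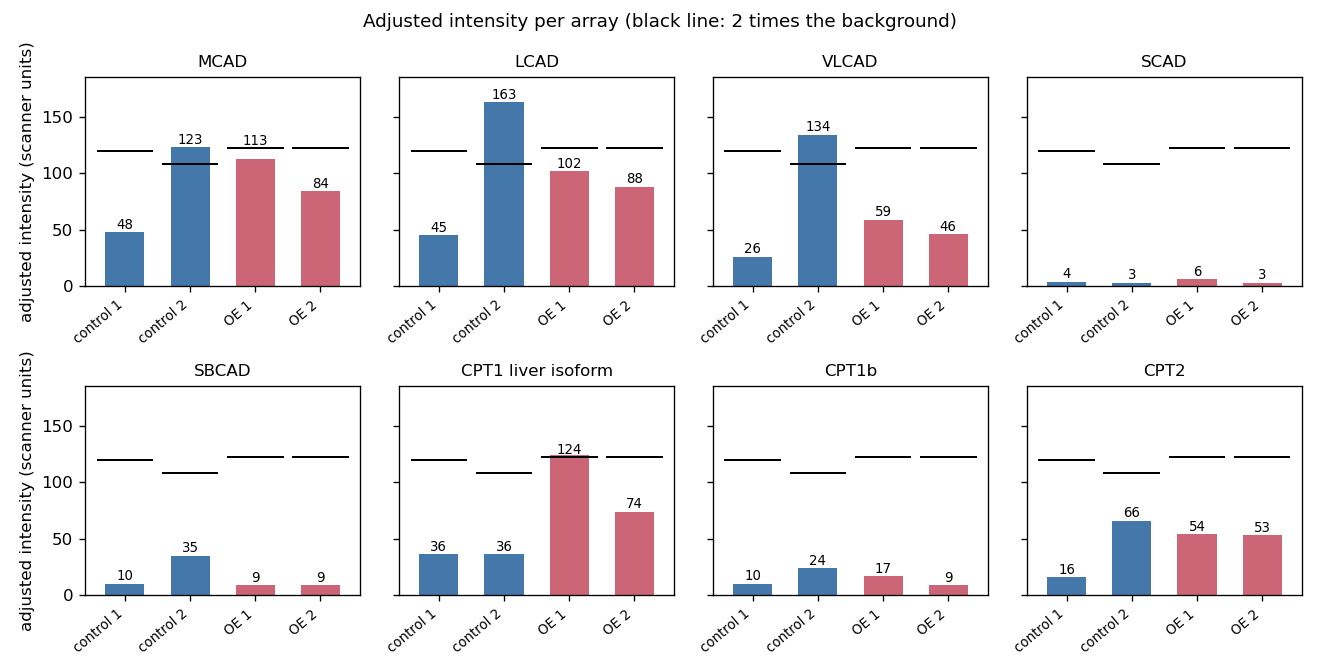
Adjusted intensity (scanner units, linear axis from 0) of the 8 genes on each of the 4 arrays, controls in blue and OE in red, 1 bar per rat. The black lines mark 2 times the background of each array, reached by MCAD (123), LCAD (163) and VLCAD (134) on control 2 and by the liver isoform of CPT1 (124) on OE 1.

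For the comparison, each value was expressed in array medians, that is, relative to the 50th percentile of the adjusted intensities on the same array. This divisor was itself dim. It ranged from 9 units (control 2) to 22 (OE 1) and was under 2 times the background on every array. A low divisor raises all levels of its array, so that levels on control 2 depend on the scaling. Values under 0.235 array medians were raised to that floor. All 8 genes passed the filter on dim spots, as did 922 spots in all. The mean of the OE arrays was under 0.5 times the control mean for 4 genes, SBCAD, VLCAD, CPT1b and LCAD, a call met by 18.3% of all spots tested. It was over 1.5 times the control mean for 1 gene, the liver isoform of CPT1, a call met by 18.9% of the spots. The log2 fold change was below 0 for 7 of the 8 genes, with a median of -0.54, and the median over all spots tested was -0.04. limma found none of the 8 genes at an adjusted p under 0.05 (Benjamini-Hochberg over 922 spots), nor at an unadjusted p under 0.05. Over all spots it called 0 (0%) at the adjusted threshold and 19 (2.06%) at an unadjusted p under 0.05. Its adjusted p for the 8 genes lay between 0.957 and 0.989, and each of the 8 intervals of 95% included 0.
The counts rested on control 2. Without it 0 of the 8 genes had a ratio under 0.5 (8.79% of all spots tested) and 3 had one over 1.5 (32.4% of all). Without control 1 the counts were 6 (28.7% of all) and 0 (29.2%), and without OE 1 they were 4 (26.5%) and 0 (17%).

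**Figure D2:**
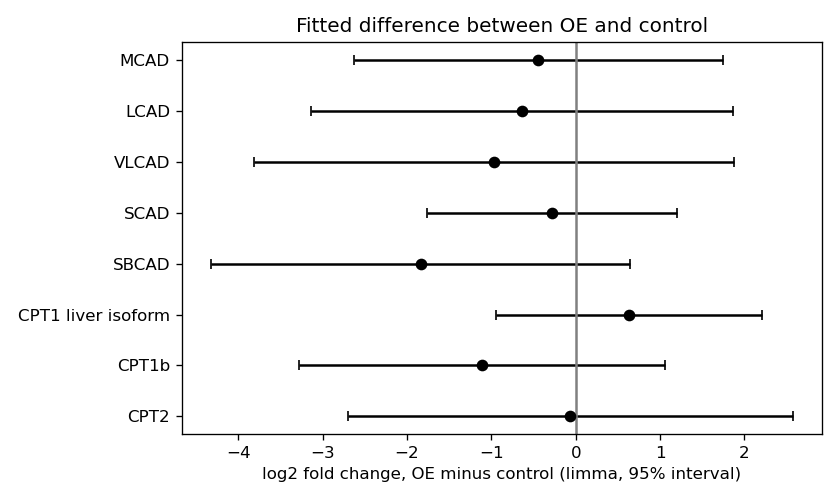
Log2 fold change of OE against control from limma for the 8 genes, with its interval of 95% (2 arrays per group). Every interval crosses the line at 0. The lowest estimate is that of SBCAD (-1.84) and the highest that of the liver isoform of CPT1 (0.63).

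The long-chain dehydrogenases and MCAD were high on control 2, low on control 1 and intermediate on both OE arrays. LCAD, which acts on long chains, had 3.21 array medians in control 1 and 18.1 in control 2, compared with 4.64 in OE 1 and 5.18 in OE 2. Both OE arrays lay close together, between 2 controls that differed 5.63-fold. The control mean was 10.7 ± 10.5 (SD, n = 2) and the OE mean 4.91 ± 0.382 (SD, n = 2), a ratio of 0.460. The log2 fold change was -0.64 (standard error 0.97), with an interval of 95% from -3.14 to 1.86 and an adjusted p of 0.957 (limma).
VLCAD, the inner membrane enzyme for the longest chains, had 1.86 array medians in control 1 and 14.9 in control 2, compared with 2.68 in OE 1 and 2.71 in OE 2. The OE arrays differed by 1.01-fold and the controls by 8.02-fold. The ratio was 0.322 and the log2 fold change -0.96 (standard error 1.11, interval -3.81 to 1.88, adjusted p = 0.957 with limma).
MCAD, the enzyme for medium chains, had 3.43 array medians in control 1 and 13.7 in control 2, compared with 5.14 in OE 1 and 4.94 in OE 2. Again neither OE value lay outside the controls, which differed 3.99-fold. The ratio was 0.589 and the log2 fold change -0.44 (standard error 0.85, interval -2.62 to 1.74, adjusted p = 0.960 with limma).
For all 3 enzymes the direction depended on the control array. Set against control 1 only, the OE mean gave a ratio of 1.47 for MCAD, 1.53 for LCAD and 1.45 for VLCAD. Set against control 2 only, the ratios were 0.369, 0.271 and 0.181. Leaving out either OE array left the ratio between 0.578 and 0.601 for MCAD, between 0.435 and 0.485 for LCAD and between 0.320 and 0.323 for VLCAD.

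**Figure D3:**
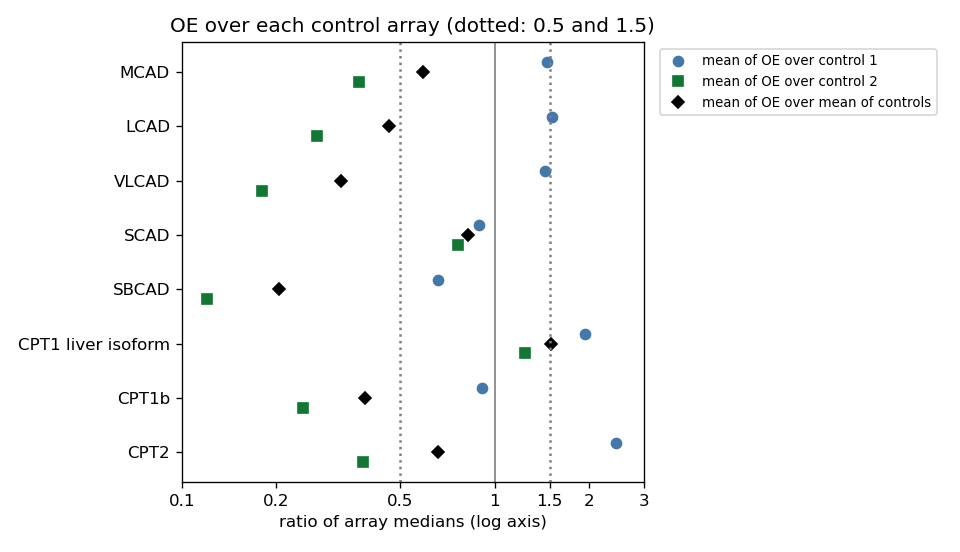
Ratio of the OE mean to control 1 (blue circles), to control 2 (green squares) and to the mean of the controls (black diamonds), in array medians on a log axis, with dotted lines at 0.5 and 1.5. MCAD, LCAD, VLCAD and CPT2 lie above 1 against control 1 and below 1 against control 2, while SBCAD, SCAD and CPT1b stay below 1 and the liver isoform of CPT1 above 1 against either control.

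SBCAD and SCAD, the short-chain enzymes of the set, had the dimmest dehydrogenase spots. SBCAD, which oxidizes short branched acyl-CoA, had the lowest ratio of the 8 genes, 0.204, and SCAD, the enzyme for butyryl-CoA, a ratio of 0.821. In array medians both genes had the pair of OE arrays under the pair of controls, a position met by 15.8% of the spots tested. SCAD passed the filter on dim spots only through the controls, where it was higher, so that its position is no support for a difference.
SBCAD had 0.714 array medians in control 1 and 3.89 in control 2, compared with 0.409 in OE 1 and 0.529 in OE 2. Its log2 fold change was -1.84 (standard error 0.97, interval -4.33 to 0.64, adjusted p = 0.957 with limma). The ratio was 0.657 without control 2 and 0.121 without control 1. The separation from control 1 arose on very little signal, since the spot intensity before subtraction was 70 on control 1, OE 1 and OE 2 alike, over backgrounds of 60, 61 and 61, and was 89 on control 2. The adjusted intensity was 10, 35, 9 and 9 in the order control 1, control 2, OE 1 and OE 2. Both OE arrays lay below both controls under each of the 7 scalings tried, including no scaling. All 7 start from these adjusted intensities and are not separate support for a difference. The share of all spots in this position was counted in array medians only (15.8%).
SCAD had an adjusted intensity of 4, 3, 6 and 3 in the same order, with OE 1 the highest array before scaling and OE 2 under the floor after it. Its groups overlapped in 4 of the 7 scalings. The log2 fold change was -0.28 (standard error 0.58, interval -1.76 to 1.19, adjusted p = 0.960 with limma).

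The carnitine palmitoyltransferases followed 3 different courses. The liver isoform of CPT1, which is less sensitive to malonyl-CoA than the muscle isoform, was the highest of the 8 genes by ratio. It had 2.57 array medians in control 1 and 4.0 in control 2, compared with 5.64 in OE 1 and 4.35 in OE 2. Both OE values lay above both control values, as they did for 14.1% of the spots tested. The control mean was 3.29 ± 1.01 (SD, n = 2) and the OE mean 4.99 ± 0.908 (SD, n = 2). The ratio was 1.52 and the log2 fold change 0.63 (standard error 0.61, interval -0.95 to 2.20, adjusted p = 0.957 with limma).
Before scaling, each control had an adjusted intensity of 36, whereas OE 1 had 124 and OE 2 had 74. The OE arrays were also brighter as a whole, with a median adjusted intensity of 22 and 17, against 14 and 9 on the controls. Without scaling, 50.7% of all spots tested had a ratio over 1.5. The ratio stayed over 1 without any 1 array, at 1.25 without control 1, 1.94 without control 2, 1.32 without OE 1 and 1.72 without OE 2. Under 5 of the 7 scalings, no scaling among them, both OE arrays lay above both controls. The exceptions were the housekeeping genes, where the ratio of the means was 0.940, and the adipocyte markers, where control 1 stood above both OE arrays. All 7 scalings reuse the same 4 arrays and are not separate support. The share of all spots in this position was counted in array medians only (14.1%).
CPT1b, the muscle isoform and the more malonyl-CoA-sensitive one, had 0.714 array medians in control 1 and 2.67 in control 2, compared with 0.773 in OE 1 and 0.529 in OE 2. Control 2 stood above the other 3 arrays, and control 1 lay between the OE arrays. The ratio was 0.385, with 0.911 against control 1 and 0.244 against control 2, and the log2 fold change was -1.11 (standard error 0.84, interval -3.28 to 1.06, adjusted p = 0.957 with limma). The adjusted intensity was 24 at most. Before subtraction the spot intensity was 70 on control 1 and OE 2, over backgrounds of 60 and 61. It was 78 on both control 2 and OE 1, over backgrounds of 54 and 61. Without background subtraction the ratio was 0.841.
CPT2 followed the order of the long-chain dehydrogenases, with 1.14 array medians in control 1 and 7.33 in control 2, compared with 2.45 in OE 1 and 3.12 in OE 2. The ratio was 0.657, but 2.44 without control 2 and 0.380 without control 1. The log2 fold change was -0.07 (standard error 1.03, interval -2.71 to 2.57, adjusted p = 0.989 with limma).

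In MCAD, LCAD, VLCAD and CPT2, 4 of the 8 genes, both OE values thus lay between a low control 1 and a high control 2, as for 22.2% of the spots tested. In array medians control 2 was the higher control for all 8 genes, and the share of all spots was not counted. Before scaling this did not hold for the liver isoform of CPT1, with 36 on each control, or for SCAD, with 4 on control 1 and 3 on control 2. In array medians the median of control 2 over control 1 was 4.72 for the 8 genes and 1.27 for all spots tested. The difference between controls was over 2-fold for 6 of the 8 genes and for 57.6% of all spots tested. Between the OE arrays it was over 2-fold for none of the 8 genes and for 22.5% of all spots.
The ratio of 2 genes on the same array is free of the scaling between arrays. It was formed for the 10 pairs among MCAD, LCAD, VLCAD, CPT2 and the liver isoform of CPT1. MCAD over LCAD varied least, at 1.07 in control 1 and 0.755 in control 2, compared with 1.11 in OE 1 and 0.955 in OE 2, a range of 1.47-fold. MCAD over the liver isoform of CPT1 was 1.33, 3.42, 0.911 and 1.14 in the same order, and VLCAD over this isoform was 0.722, 3.72, 0.476 and 0.622. In both ratios control 2 was far above the other arrays, and the OE arrays stood under the 2 controls.
LCAD over the liver isoform of CPT1 was 1.25, 4.53, 0.823 and 1.19, with the same separation. Relative to CPT2, LCAD had 2.81, 2.47, 1.89 and 1.66 and VLCAD 1.63, 2.03, 1.09 and 0.868. These 5 of the 10 ratios, which share genes, were lower on both OE arrays than on both controls. Over all pairs of spots with a signal above 0 on every array, 31.4% had both OE values on one side of both controls. With 2 arrays against 2 an exact two-sided permutation test cannot give a p under 0.333, so that none was run on single ratios.

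Like MCAD, LCAD, VLCAD and CPT2, the sum of the fat cell markers was lowest on control 1 and highest on control 2, where the sum of the leukocyte markers was lowest. The summed level of the 4 adipocyte markers (FABP4, LPL, HSL and leptin) was 263 array medians in control 1 and 2231 in control 2, compared with 425 in OE 1 and 521 in OE 2. Most of it was FABP4, with 252, 2115, 400.5 and 501 in the same order. LPL and HSL were also lowest on control 1 and highest on control 2. Leptin was at 0 on control 2. The summed level of the 8 leukocyte markers was 242 array medians in control 1 and 18.6 in control 2, compared with 263 in OE 1 and 130 in OE 2. The leukocyte common antigen alone had 146, 7.89, 145 and 77.6 in the same order. CD4 was lowest on OE 2 (6.41) and not on control 2 (8.0). On control 2 none of the 8 was detected and 4 were at 0, whereas control 1 had 5 of them detected, OE 1 had 6 and OE 2 had 3. The 5 intestinal markers summed to 1.93, 1.44, 3.14 and 273 array medians in the same order, with 4 of the 5 detected on OE 2 and none elsewhere. The 6 pancreatic markers were detected on no array, with sums between 0.682 and 2.94 array medians. The part of these cell types in the values of the oxidation genes was not tested. The search for muscle structural proteins and uncoupling proteins named no muscle or brown fat marker on the array, so that the muscle isoform CPT1b was not set beside a muscle list.
Against the geometric mean of the adjusted intensities of FABP4, LPL and HSL, a scale chosen after the data were seen, MCAD was 21.6% in control 1 and 7.59% in control 2, compared with 13.6% in OE 1 and 14.5% in OE 2. On this scale control 2 was the lowest array and control 1 the highest, and both OE arrays again lay between them. The liver isoform of CPT1 was 16.2% in control 1 and 2.22% in control 2, compared with 14.9% in OE 1 and 12.8% in OE 2, so that its OE values no longer exceeded control 1. SBCAD was 4.50% in control 1 and 2.16% in control 2, compared with 1.08% in OE 1 and 1.56% in OE 2.

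**Figure D4:**
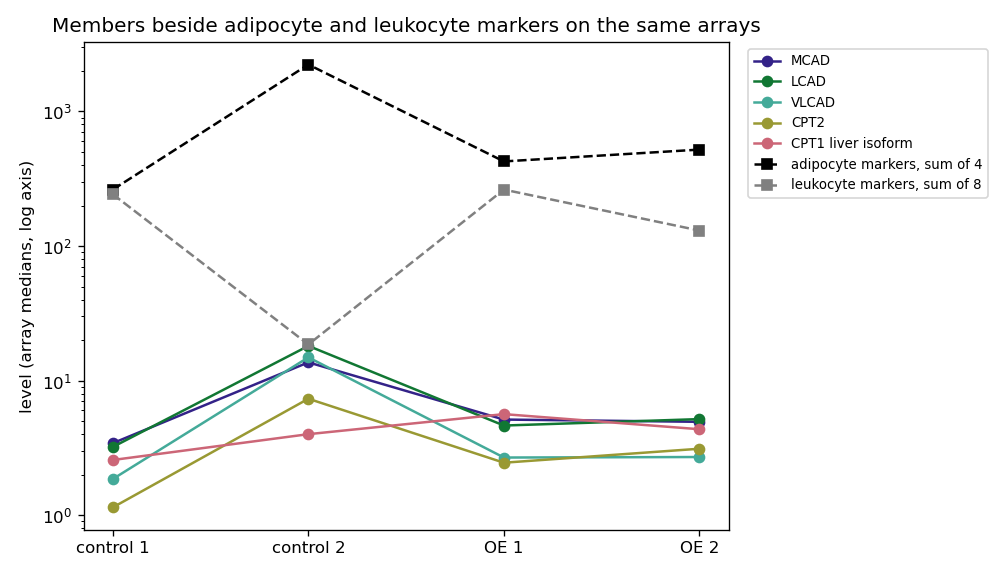
Level in array medians (log axis) of 5 genes of the set and the summed level of the 4 adipocyte and 8 leukocyte markers on each array, where lines join the values of the same gene or sum. MCAD, LCAD, VLCAD and CPT2 are highest on control 2, where the adipocyte sum is 2231 and the leukocyte sum 18.6, and the liver isoform of CPT1 is highest on OE 1.

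A list of other genes of fatty acid oxidation and acyl-CoA metabolism, which leaves out fatty acid transporters, fatty acid-binding proteins, fatty acid synthase and lipases, had 8 genes on the array, and 7 passed the filter. The ratio was under 0.5 for 3 of them (18.3% of all spots tested) and over 1.5 for 1 (18.9% of all). limma called none of them (smallest adjusted p = 0.957), and the median log2 fold change was 0.15, against -0.04 over all spots. Control 2 stood highest in 4 of the 7, with both OE values between the controls, a position met by 22.2% of all spots.
The long chain acyl-CoA synthetase LACS2, which activates fatty acids before CPT1 acts, had 40 units of adjusted intensity in control 1 and 801 in control 2, compared with 618 in OE 1 and 189 in OE 2. Its ratio in array medians was 0.427, and 6.86 without control 2. Its OE arrays lay between the controls, as for the long-chain dehydrogenases.
Acetyl-CoA carboxylase, which makes the malonyl-CoA that inhibits CPT1, had 34, 138, 37 and 28, a ratio of 0.187, and 0.685 without control 2. In array medians both OE values lay below both controls, as for 15.8% of all spots tested. The cytosolic acyl-CoA thioester hydrolase, which releases fatty acids from CoA, had 27, 25, 127 and 84. Like the liver isoform of CPT1 it was higher on both OE arrays than on both controls, with a ratio of 2.28 and a log2 fold change of 1.21 (standard error 0.60, adjusted p = 0.957 with limma). In array medians 14.1% of all spots tested had this position, and the hydrolase was detected on OE 1 alone. The ratio lay between 1.93 and 2.78 when any 1 array was left out.
Among the genes whose adjusted intensity stayed below 2 times the background on every array, peroxisomal acyl-CoA oxidase had 4, 53, 87 and 90, with a ratio of 16.2 without control 2 and of 0.785 without control 1. The spot shared by 3-ketoacyl-CoA thiolases A and B did not exceed 17, and brain long-chain fatty acid-CoA ligase, which failed the filter, did not exceed 7.

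Likeness to other genes was measured as the root mean square difference of centred log2 values over the 4 arrays, among 274 genes above the floor on all arrays and detected on at least 1. The gene nearest to MCAD was the ras-related protein rab1A (0.06), that nearest to LCAD was heat shock 27-kDa protein (0.06) and that nearest to VLCAD was glutathione synthetase (0.11), followed by LPL (0.15). The median of this difference over the 274 genes was 0.70 for MCAD, 0.83 for LCAD and 0.99 for VLCAD. SBCAD was nearest to acetyl-CoA carboxylase (0.16), the liver isoform of CPT1 to neurofibromin (0.05), CPT1b to an interferon induced protein (0.13) and CPT2 to phospholipase C delta 1 (0.05). Within the set, MCAD and LCAD were 0.22 apart and LCAD and VLCAD 0.25, while the liver isoform of CPT1 was at least 0.73 from each of the other 6 genes compared. SCAD did not enter because OE 2 lay under the floor.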

How the data were processed

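Atlas Rat 1.2 nylon arrays were hybridized with 33P-labelled cDNA from 5 μg of total RNA, 1 rat per array, and quantified by the authors with Atlas Image. The deposited intensity values are the spot, background and adjusted intensity of 1185 spots, not scaled between arrays. Columns of a second array, 12 in total over the 4 samples, were not used. Groups came from the sample titles. Following the methods, adjusted intensities were divided by the 50th percentile of each array. A floor was set at the 10th percentile of all scaled values above 0 (0.235), and spots above it on both arrays of a group were kept (922). The control strength filter was not repeated. log2 values were fitted with limma 3.58.1 in R 4.3.3 (group as the only term). Precision is limited by having 2 arrays in each group. All genes of the rule were named, with the oxidation list's detected genes and the nearest genes. 1 gene of that list, included in its counts, is not reported here. The members, lists and tests were chosen with earlier results of these data known, and marker hits that named another protein were removed after they were seen. On simulated data for OE against control, with 922 genes of which 200 were shifted by 2 log2 units, limma recovered 100% at a noise SD of 0.1 and 42% at the typical SD of 0.76. The pooled SD of log2 values in the 8 genes ran from 0.154 (SCAD) to 1.50 (VLCAD). The simulated shares are therefore not the recovery for this set. Alternatives covered scaling, floor, filter, background, the series table, left-out arrays, a replicate block and an intensity trend. Same-numbered arrays did not deviate together (correlation 0.0495 across genes) and were not treated as pairs.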

Additional observations from a re-analysis of the deposited data

How the results depend on the processing

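limma called 0 spots under all 19 alternatives, with a smallest adjusted p between 0.188 (without control 1) and 0.999 and between 1 and 226 spots at an unadjusted p under 0.05; with the replicate block the count was also 0 (17 at an unadjusted p under 0.05), and it changed no other call. CPT1b and SBCAD kept a log2 fold change below 0 under every alternative that gave a value. SCAD did so under 13 alternatives, and the filter removed it under others, no scaling among them. Its unscaled ratio, without floor or filter, was 1.29, so that the sign for SCAD depends on the processing. CPT2 turned above 0 with the 75th percentile (0.00036), the adipocyte markers (0.51, chosen after seeing the data), the genes detected on all 4 arrays (0.22), no background subtraction (0.025), no scaling (0.72), normexp (0.050) and quantile normalization (0.12). No scaling turned LCAD to 0.15 and MCAD to 0.34, the adipocyte markers turned MCAD to 0.13, and the housekeeping genes turned the liver isoform of CPT1 to -0.10. The median of all spots moved with the scaling, from -0.04 to -0.75 with the housekeeping genes, 0.23 with the genes detected on all 4 arrays, 0.47 with the adipocyte markers and 0.74 without scaling. Leaving out each array in turn gave -1.41 to 1.28 for CPT2, -1.89 to 0.61 for LCAD, -1.44 to 0.56 for MCAD and -2.47 to 0.54 for VLCAD, all above 0 without control 2; CPT2 was also above 0 without OE 1 (0.11). A group left with 1 array was given the spread of the other group. The count of genes under 0.5, 4 in the text (18.3% of all spots), was 6 with the housekeeping genes (45.2%) and 1 with the adipocyte markers (15.2%). It was 2 with the genes detected on all 4 arrays (11.3%) and 1 without scaling (3.04%). It was 0 without background subtraction (0.88%) and with normexp (0.905%), and 0 to 6 with an array left out. As a ratio of geometric means it was 2, where the share of all spots was not counted. The count over 1.5, 1 in the text (18.9% of all spots), was 0 with the housekeeping genes (5.14%), without background subtraction (6.68%) and with normexp (7.42%), and 0 to 3 with an array left out. The cause was not tested. The series table names no genes, so that only the count over all spots was taken from it. With 4 of 32 adjusted intensities at 2 times the background, weak signal limits the ratios.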
